A study of Rattus norvegicus with 10 samples.

Results

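The genes described here carry fatty acids into the heart cell, activate them and oxidise them in mitochondria and peroxisomes. They were taken from a list of 37 rat genes, and a gene counted as measured where at least 1 probe set of the array carried its symbol alone. Of the 37 genes, 36 were measured, by 51 probe sets, among 14217 named genes in all. The peroxisomal thiolase gene Acaa1a had no probe set of its own. RNA levels come from Affymetrix expression arrays of male Fischer-344 rats, an inbred strain much used in aging research, on standard chow. The design has 5 Old arrays from rats of 24 months and 5 Young arrays from rats of 6 months, and no genetic change or drug was named for either age. The sample labels give the whole heart as the source and the series text the ventricles, which leaves it unclear if atrial tissue was present. Nothing in the labels ties each array to its own rat, and a p-value here speaks only to the spread among these arrays, which may be technical.

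The adult heart draws most of its energy from long-chain fatty acids. After uptake they are joined to coenzyme A by acyl-CoA synthetases, moved into mitochondria by the carnitine shuttle, and shortened in the 4 steps of beta-oxidation. Electrons from the first step pass through the electron transfer flavoprotein and its dehydrogenase to ubiquinone. Peroxisomes shorten very long and branched chains and hand the products on. Many of these genes are known targets of the receptor PPAR-alpha and of PGC-1 coactivators.

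Values are on a log2 scale relative to the median of the 10 arrays, as the authors deposited them, so they show differences between arrays and not the abundance of a transcript. No source used here gives the log base, which was inferred from the values, and every fold rests on it. Values of single arrays are listed for Old replicates 2, 3, 4, 5 and 6 and for Young replicates 1, 2, 3, 4 and 6, in that order. A difference is Old minus Young with its standard error (SE), n = 5 per age. A gene is said to have risen or fallen where its adjusted p was under 0.05 in limma, a linear model fitted to all 14217 genes with Benjamini-Hochberg adjustment.

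The steps of fatty acid use differed in how many of their genes changed with age. Of the 36 measured genes, 11 fell and 2 rose in Old hearts, where 5.09% of all genes fell and 6.77% rose. A lower mean in Old hearts was seen in 27 of 36 genes, against 51.8% of all genes. The median difference over the 36 genes was -0.15, or -0.01 over all genes. Every Old array lay below every Young array in 11 genes, a pattern seen in 4.78% of all genes, and above it in 2 genes (5.13% of all genes). By step, 2 of 8 genes of uptake and activation fell and 2 rose (median -0.01). Of 8 genes of mitochondrial entry and acyl-CoA handling 4 fell (median -0.21), as did 2 of 11 of mitochondrial beta-oxidation (median -0.15). In electron transfer 2 of 3 fell (median -0.41), and among peroxisomal genes 1 of 6 (median -0.04). The differences between steps were not tested. The count of 13 changed genes was 8 without Old replicate 6, 7 without Young replicate 2 and 6 without Young replicate 3, where 1089, 1047 and 988 of all genes changed, against 1686 on all arrays. Without Old replicates 3 and 6 together it was 5, where 1012 of all genes changed. Acadvl, Mlycd, Etfb, Etfdh and Acsl4 were called in each of these fits.

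**Figure D1:**
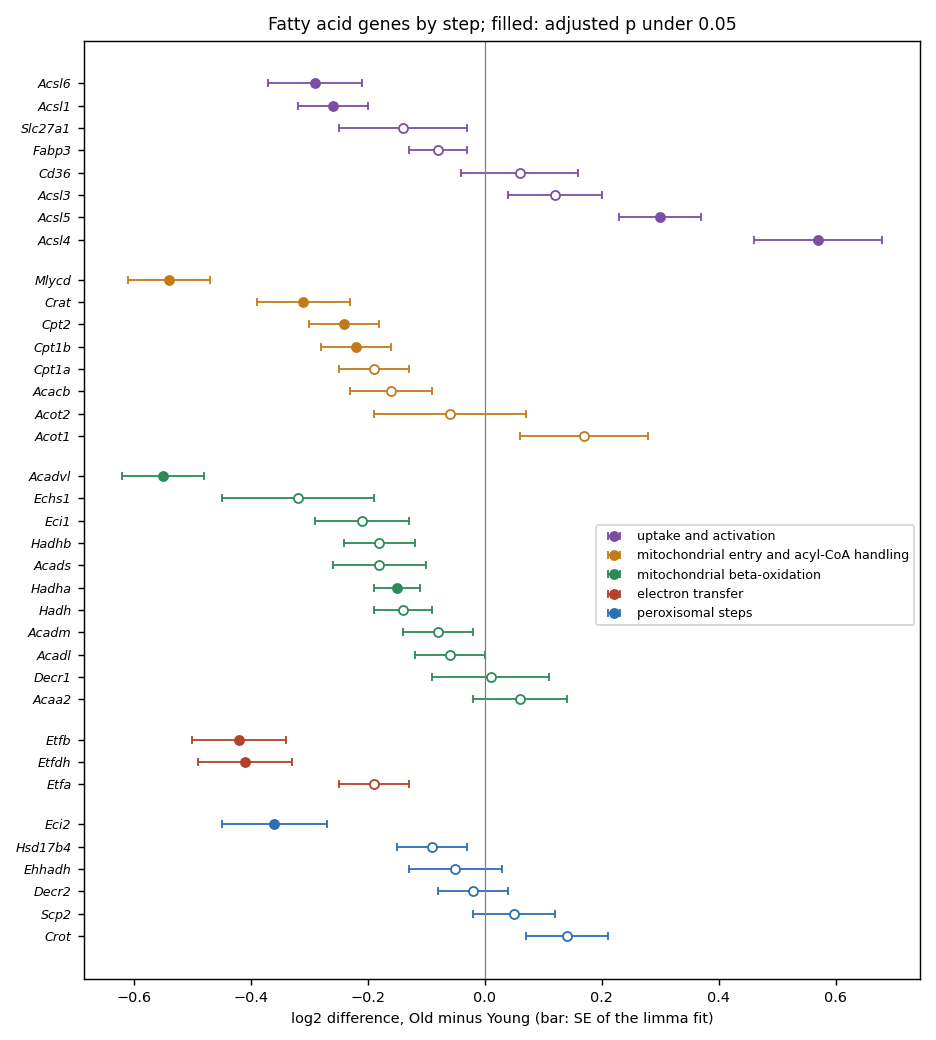
Log2 difference, Old minus Young, of each of the 36 measured genes (x axis), grouped by step, with the SE of the fit as bars and filled points for adjusted p under 0.05. Acadvl at -0.55 and Mlycd at -0.54 lie farthest to the left, and Acsl4 at 0.57 farthest to the right.

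Uptake genes gave no change past the threshold, and the acyl-CoA synthetases moved in both directions. The fatty acid translocase gene Cd36 had values of -0.12, -0.18, 0.08, 0.14 and -0.02 in Old hearts, against 0.02, -0.45, 0.13, 0.03 and -0.12 in Young hearts. The ages overlapped, with the lowest value on Young replicate 2 (difference 0.06 ± 0.10 SE, limma adjusted p = 0.764, and -0.03 without that array). Fabp3, which encodes the fatty acid binding protein of heart muscle, gave -0.08 ± 0.05 SE (limma adjusted p = 0.325). The transport protein gene Slc27a1 gave -0.14 ± 0.11 SE (limma adjusted p = 0.494).

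Acsl1 encodes the main long-chain acyl-CoA synthetase of heart, which feeds oxidation. Its values were -0.09, -0.17, -0.05, -0.09 and -0.27 in Old hearts, against 0.03, 0.08, 0.18, 0.25 and 0.10 in Young hearts. Every Old array was lower than every Young array, and the gene fell to 0.834 times its Young level (-0.26 ± 0.06 SE, limma adjusted p = 0.0127). Acsl4, whose enzyme prefers arachidonic acid and other polyunsaturated chains, had 0.45, 0.03, 0.29, 0.43 and 0.71 in Old hearts, against -0.03, -0.34, -0.29, -0.17 and -0.14 in Young hearts. The ages did not overlap, the highest value was on Old replicate 6, and Acsl4 rose 1.49-fold (0.57 ± 0.11 SE, limma adjusted p = 0.00601). Acsl5, which encodes a synthetase of mitochondrial and reticulum membranes, rose as well (0.30 ± 0.07 SE, limma adjusted p = 0.0220). It ranged from 0.07 to 0.38 in Old hearts and from -0.30 to 0.05 in Young hearts, again with no overlap. The 2 probe sets of Acsl5 gave 0.42 ± 0.10 SE and 0.17 ± 0.08 SE (limma adjusted p over probe sets 0.0252 and 0.241). In the second the ages overlapped. Acsl6, best known from brain, fell (-0.29 ± 0.08 SE, limma adjusted p = 0.0414), with Old replicate 2 at 0.03 inside the Young range of -0.08 to 0.18. Acsl3, a synthetase of lipid droplets, gave 0.12 ± 0.08 SE (limma adjusted p = 0.401). The call of Acsl5 was lost without Young replicate 2 (0.0543) or 3 (0.0564), and that of Acsl6 without any 1 array other than Old replicate 2 and Young replicate 4 (0.0580 to 0.0986). Without Old replicates 3 and 6 together, Acsl1 (0.0655) and Acsl5 (0.0895) did not pass either.

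The sequences just upstream of Acsl1 and Acsl4 are shown because these related genes moved in opposite directions. They are the 120 bases before each start in RefSeq's build GRCr8, at chr16:52532393-52532512 (minus strand) and chrX:110803262-110803381 (minus strand), written 5′ to 3′.
Acsl1: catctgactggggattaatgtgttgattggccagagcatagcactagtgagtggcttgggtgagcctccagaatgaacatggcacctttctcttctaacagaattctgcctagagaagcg
Acsl4: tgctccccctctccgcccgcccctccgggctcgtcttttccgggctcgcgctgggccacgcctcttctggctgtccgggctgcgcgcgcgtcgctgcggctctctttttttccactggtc
Over the whole promoter window, from 250 bases before to 50 after the start, Acsl1 was 40.7% G or C and Acsl4 70.7%, where the median of all such windows was 51.7%. Neither holds AGGTCA, the half-site that PPAR, RXR and related receptors bind, on either strand. A link between these sequences and the direction of change was not tested.

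**Figure D2:**
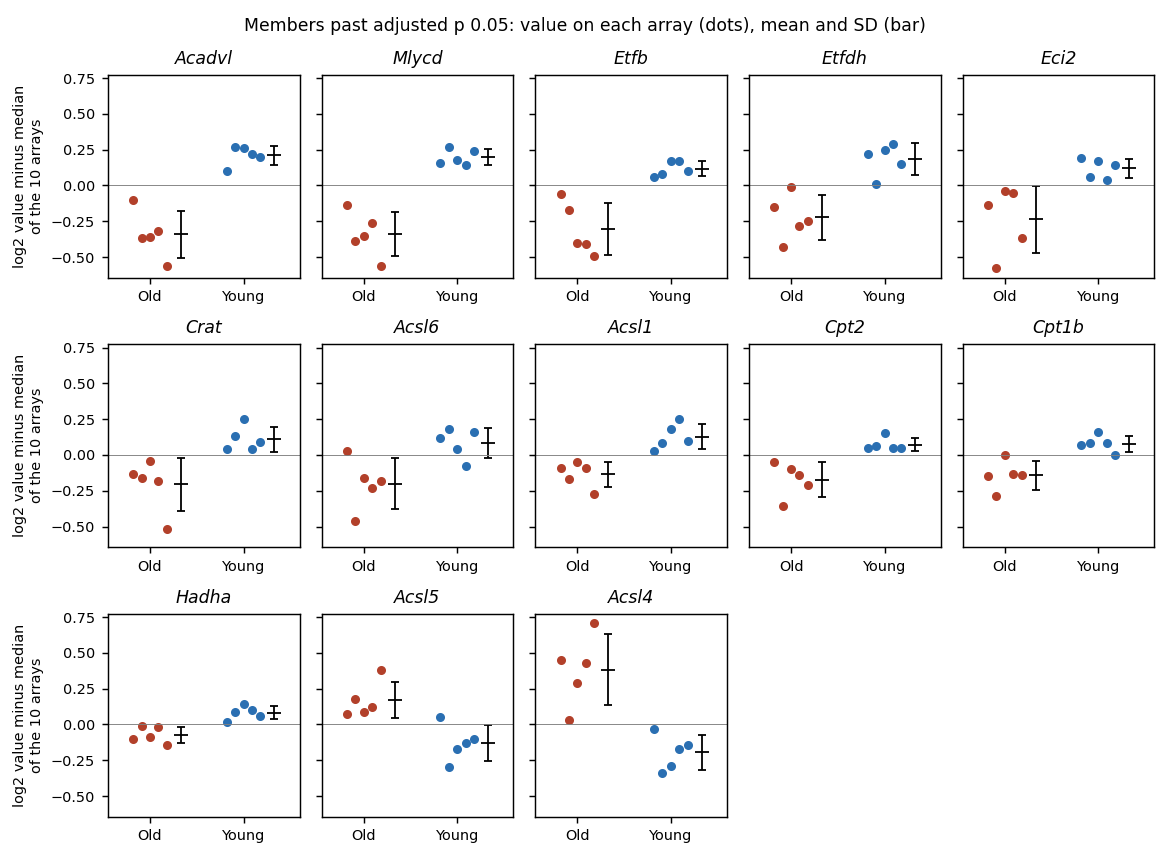
Log2 value relative to the median of the 10 arrays (y axis) for the 13 genes past the threshold, with Old arrays on the left and Young arrays on the right of each panel, and the mean and SD beside the dots. In Acadvl the Old arrays lie between -0.56 and -0.10 and the Young arrays between 0.10 and 0.27, and in Acsl4 the Old arrays are the higher ones.

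Genes of mitochondrial entry were mostly lower in Old hearts. Mlycd encodes malonyl-CoA decarboxylase, which removes the inhibitor of the carnitine shuttle. It had values of -0.14, -0.39, -0.35, -0.26 and -0.56 in Old hearts, against 0.16, 0.27, 0.18, 0.14 and 0.24 in Young hearts. The gap between the ages was wider than the range within Young hearts, and Mlycd fell by 31.0% (a change of -31.0%, -0.54 ± 0.07 SE, limma adjusted p = 0.00131). Acacb, whose enzyme makes malonyl-CoA at the mitochondrion, had -0.15, 0.17, -0.12, -0.09 and -0.20 in Old hearts, against 0.00, 0.13, 0.14, 0.00 and 0.17 in Young hearts. Old replicate 3 lay level with the highest Young array, and Acacb did not pass (-0.16 ± 0.07 SE, limma adjusted p = 0.157). It passed without Old replicate 3 (0.0191).

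Cpt1b, the muscle form of the outer carnitine palmitoyltransferase, fell. Its values were -0.15, -0.29, 0.00, -0.13 and -0.14 in Old hearts, against 0.07, 0.08, 0.16, 0.08 and 0.00 in Young hearts (-0.22 ± 0.06 SE, limma adjusted p = 0.0238). Old replicate 4 and Young replicate 6 met at the same 2 decimals. The inner transferase gene Cpt2 fell by a similar amount (-0.24 ± 0.06 SE, limma adjusted p = 0.0218), with a range of -0.36 to -0.05 in Old hearts and 0.05 to 0.15 in Young hearts. Cpt1a, the liver form, gave -0.19 ± 0.06 SE and did not pass (limma adjusted p = 0.0715, or 0.0454 without Old replicate 3), and its 2 probe sets gave -0.19 and -0.20. Crat, whose carnitine acetyltransferase exports short acyl groups, fell (-0.31 ± 0.08 SE, limma adjusted p = 0.0273), with Old replicate 6 lowest at -0.52. The thioesterase genes Acot1 (0.17 ± 0.11 SE) and Acot2 (-0.06 ± 0.13 SE) did not pass, and these near-identical neighbours can share signal. Old replicate 3 was at 0.37 and Old replicate 6 at -0.57 for Acot2, while its Young arrays kept within -0.05 to 0.06. The calls were lost for Cpt1b without Old replicate 5 or 6 or Young replicate 2 or 3 (0.05 to 0.0652), for Cpt2 without Old replicate 6 (0.0521) or Young replicate 3 (0.0602), and for Crat without Old replicate 5 or Young replicate 2, 3 or 6 (0.0504 to 0.0735). All 3 were lost without Old replicates 3 and 6 (0.0605 to 0.1).

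In mitochondrial beta-oxidation the deepest fall was in the gene of the first enzyme for the longest chains. Acadvl, very long-chain acyl-CoA dehydrogenase, had -0.10, -0.37, -0.36, -0.32 and -0.56 in Old hearts, against 0.10, 0.27, 0.26, 0.22 and 0.20 in Young hearts. No Old array reached 0 and no Young array went below it, and Acadvl fell to 0.681 times its Young level (-0.55 ± 0.07 SE, limma adjusted p = 0.00142). The dehydrogenases for shorter chains gave smaller values that did not pass. Acadl (long chains) had -0.06 ± 0.06 SE, Acadm (medium chains) -0.08 ± 0.06 SE and Acads (short chains) -0.18 ± 0.08 SE, with limma adjusted p of 0.614, 0.464 and 0.159. The 95% intervals of their differences were -0.19 to 0.08, -0.22 to 0.06 and -0.35 to -0.01, against -0.71 to -0.40 for Acadvl. The difference between Acadvl and these genes was not tested.

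Hadha and Hadhb encode the alpha and beta subunits of the trifunctional protein, which carries out the last steps for long chains on the inner membrane. Averaged over its 3 probe sets, Hadha fell slightly (-0.15 ± 0.04 SE, limma adjusted p = 0.0435), but the probe sets differed. The probe set inferred to be the brightest had -0.23, -0.22, -0.32, -0.15 and -0.34 in Old hearts, against 0.19, 0.27, 0.29, 0.37 and 0.15 in Young hearts. It gave -0.50 ± 0.06 SE (limma adjusted p = 0.000758 over all probe sets, of which 3.60% fell), with the ages well apart. The other probe sets of Hadha gave -0.03 ± 0.05 SE and 0.07 ± 0.06 SE, so the gene's value depends on which are used. Hadhb had -0.10, 0.00, 0.00, -0.07 and -0.26 in Old hearts, against 0.07, 0.15, 0.08, 0.17 and -0.02 in Young hearts. Only Young replicate 6 lay among the Old arrays, and Hadhb did not pass (-0.18 ± 0.06 SE, limma adjusted p = 0.0746). The averaged call of Hadha was lost without any 1 array other than Old replicate 3 and Young replicate 1 (0.0646 to 0.112), and without Old replicates 3 and 6 together (0.103).

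The remaining enzymes of the spiral did not pass as averages. Echs1, enoyl-CoA hydratase for short chains, had 0.01, -0.84, -0.01, -0.22 and -0.13 in Old hearts, against 0.14, -0.05, 0.17, 0.04 and 0.08 in Young hearts. Its mean rested on Old replicate 3 (-0.32 ± 0.13 SE, limma adjusted p = 0.155, and -0.17 without that array). Hadh, the medium and short-chain hydroxyacyl-CoA dehydrogenase, gave -0.14 ± 0.05 SE (limma adjusted p = 0.0889, passing at 0.0269 without Old replicate 4). Eci1, the isomerase for double bonds, gave -0.21 ± 0.08 SE (limma adjusted p = 0.112). Decr1 (0.01 ± 0.10 SE), the reductase that handles polyunsaturated chains, and Acaa2 (0.06 ± 0.08 SE), the thiolase, were close to 0.

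Hadha and Hadhb lie head to head, with starts 301 bases apart, and the 200 bases common to both promoter windows are printed to show that the pair shares its upstream sequence. A stretch upstream of Acadvl is printed beside it because it was the deepest fall and carries 2 half-sites AGGTCA, which are in capitals. The sequences are RefSeq's, build GRCr8, at chr6:31907551-31907750 (plus strand, in the direction of Hadha) and chr10:55236711-55236881 (minus strand).
Hadha and Hadhb: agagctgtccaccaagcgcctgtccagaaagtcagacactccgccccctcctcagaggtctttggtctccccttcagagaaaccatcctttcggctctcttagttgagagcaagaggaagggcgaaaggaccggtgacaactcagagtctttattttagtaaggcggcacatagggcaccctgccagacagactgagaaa
Acadvl: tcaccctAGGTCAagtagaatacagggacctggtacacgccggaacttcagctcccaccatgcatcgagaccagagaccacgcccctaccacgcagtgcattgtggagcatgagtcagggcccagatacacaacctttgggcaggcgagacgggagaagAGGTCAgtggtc
Promoter windows of 250 bases before to 50 after the start were matched for 33 of the 37 genes, and searched on both strands. AGGTCA was in 8 of them (24.2%), against 16.2% of all 33469 windows. Of the 11 genes that fell, Acadvl and Eci2 were among those 8. The full direct repeat of PPAR with RXR, which is AGGTCA, any 1 base and AGGTCA again, was in 0 of the 33 and 0.0538% of all windows. The estrogen-related receptor motif TCAAGGTCA, which also contains it, was in 0 of the 33 and 0.433% of all windows. The GC box GGGCGG was in 22 of the 33 (66.7%), against 33.1% of all windows, and the median GC share of the 33 windows was 59.7%, against 51.7% for all.

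Electron transfer was the step with the largest median difference. Etfb, the beta subunit of the electron transfer flavoprotein, had -0.06, -0.17, -0.40, -0.41 and -0.49 in Old hearts, against 0.06, 0.08, 0.17, 0.17 and 0.10 in Young hearts. It fell by 25.5% (a change of -25.5%, -0.42 ± 0.08 SE, limma adjusted p = 0.00513), with every Old array lower. Etfdh, the dehydrogenase that passes the electrons to ubiquinone, had -0.15, -0.43, -0.01, -0.28 and -0.25 in Old hearts, against 0.22, 0.01, 0.25, 0.29 and 0.15 in Young hearts. The ages came closest at Old replicate 4 and Young replicate 2 without overlap, and Etfdh fell (-0.41 ± 0.08 SE, limma adjusted p = 0.00726). Etfa, the alpha subunit, had -0.01, -0.30, -0.01, -0.09 and -0.21 in Old hearts, against 0.11, 0.09, 0.01, 0.07 and 0.08 in Young hearts. Although the ages did not overlap, Etfa did not pass (-0.19 ± 0.06 SE, limma adjusted p = 0.0582). It passed without Old replicate 2 (limma adjusted p = 0.0339) or Old replicate 4 (limma adjusted p = 0.0461).

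Among the peroxisomal genes, Eci2 was the one that passed the threshold. Eci2, an isomerase found in peroxisomes and mitochondria, had -0.14, -0.58, -0.04, -0.05 and -0.37 in Old hearts, against 0.19, 0.06, 0.17, 0.04 and 0.14 in Young hearts. It fell (-0.36 ± 0.09 SE, limma adjusted p = 0.0293), with Old replicates 3 and 6 the lowest. The call was lost without Old replicate 6 or Young replicate 1, 2, 3 or 6 (0.0541 to 0.0729), and without Old replicates 3 and 6 together (0.0611). Of the enzymes of peroxisomal oxidation proper, Hsd17b4 gave -0.09 ± 0.06 SE and the bifunctional enzyme gene Ehhadh -0.05 ± 0.08 SE. The only probe set of Ehhadh was inferred to be among the dimmest. The reductase gene Decr2 gave -0.02 ± 0.06 SE, and Scp2, whose product is a thiolase and sterol carrier, gave 0.05 ± 0.07 SE. The limma adjusted p of these 4 genes lay between 0.327 and 0.872. Crot, which encodes the carnitine octanoyltransferase that exports shortened chains, gave 0.14 ± 0.07 SE (limma adjusted p = 0.204). One of its 3 probe sets gave 0.50 ± 0.10 SE (limma adjusted p = 0.0116 over probe sets, of which 4.42% rose), and the others -0.02 and -0.05.

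**Figure D3:**
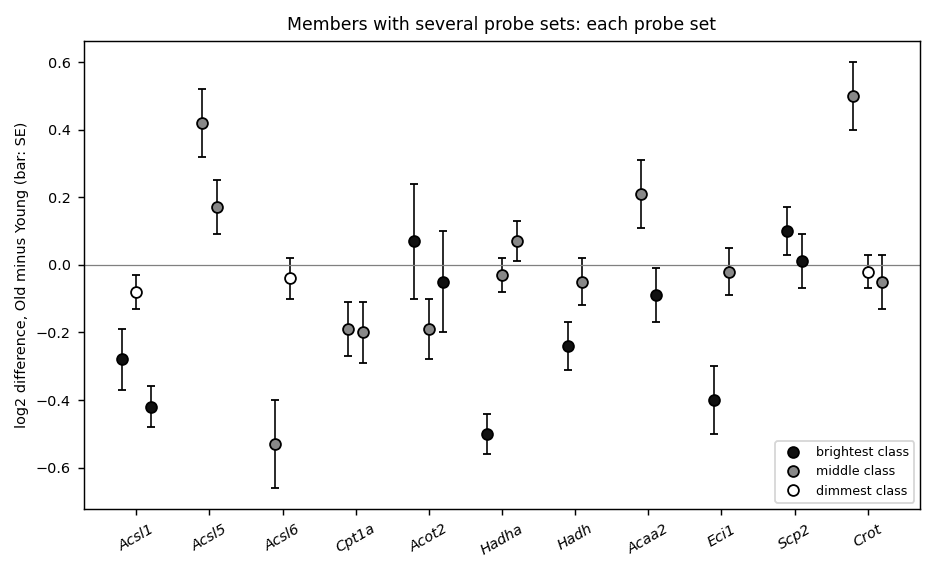
Log2 difference, Old minus Young, of every probe set (y axis, bars are SE) for the 11 genes measured by several probe sets, shaded by the brightness class inferred from the numerical step of the deposited values. The black points of Hadha (-0.50), Eci1 (-0.40) and Hadh (-0.24) lie below the grey points of the same genes (-0.03 and 0.07, -0.02, and -0.05).

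Probe sets of the same gene often disagreed in size. Eci1 gave -0.40 ± 0.10 SE with its brightest probe set (limma adjusted p = 0.0268 over probe sets) and -0.02 ± 0.07 SE with the other. For Acsl6 the values were -0.53 ± 0.13 SE and, in the dimmest class, -0.04 ± 0.06 SE. The brighter probe sets of Acsl1 gave -0.28 and -0.42, and the dimmest gave -0.08. A brightest-class probe set existed for 25 of the 36 genes, as for 2758 of the 14217 genes in all. With the probe sets of the highest class of each gene, a setting chosen after seeing the data, 13 genes fell and 2 rose, where 5.12% of all genes fell and 7.16% rose. Hadh (-0.24, limma adjusted p = 0.0467) and Eci1 (-0.40, limma adjusted p = 0.0225) were then added, and Hadha stood at -0.50 (limma adjusted p = 0.000829). The classes are inferred and uncertain for single probe sets.

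Within each array, related enzymes were set against each other in 10 pairs with a shared, opposing or adjoining reaction, of which 9 were measured. The genes they were drawn from had been chosen with earlier results of these data known. Acsl1 minus Acsl4 was -0.51 ± 0.30 in Old hearts and 0.32 ± 0.17 in Young hearts (SD, n = 5 each). The pair ranged from -0.98 to -0.20 in Old hearts and from 0.06 to 0.47 in Young hearts, a difference of -0.84 (two-sided exact permutation p = 0.00794, the smallest that 5 against 5 arrays allow, adjusted over the 9 pairs 0.0357). Neither gene overlapped between the ages, with Acsl1 lower and Acsl4 higher on every Old array. The pair therefore had to reach this p, and it repeats the 2 limma calls without adding to them. The same holds for this pair in every fit that leaves arrays out. Mlycd minus Acacb, the removal against the making of malonyl-CoA, was -0.26 ± 0.21 in Old hearts and 0.11 ± 0.05 in Young hearts (SD, n = 5 each). Its difference of -0.37 had the same exact permutation p of 0.00794 and adjusted p of 0.0357. That adjusted p is under 0.05 only because Acsl1 minus Acsl4, whose p was fixed, shares the smallest p. With Mlycd minus Acacb alone at this p among the 9 pairs, it would not have passed. By value, the pair ranged from -0.56 to 0.00 on Old arrays and from 0.04 to 0.16 on Young arrays, without overlap. Etfdh minus Etfa differed by -0.21 (exact permutation p = 0.0238, adjusted 0.0714) and did not pass. The muscle and liver forms Cpt1b and Cpt1a gave no difference in their change past the threshold (-0.03, exact permutation p = 0.786, adjusted 0.944). Neither did Acsl1 and Acsl6, Acot2 and Acot1, Hadha and Ehhadh, Decr1 and Decr2, or Eci1 and Eci2 (adjusted exact permutation p 0.339 to 0.944). With the probe sets of the highest class, Hadha minus Ehhadh passed as well (-0.45, adjusted exact permutation p = 0.0238). Ehhadh had only 1 probe set, of the dimmest class, so this change came from the choice of Hadha probe set. Acsl1 minus Acsl4 and Mlycd minus Acacb both lost their call without Young replicate 1, 3, 4 or 6. The adjusted exact permutation p was then 0.0714 for each pair. In those fits Acsl1 minus Acsl4 kept the smallest p that 5 against 4 arrays allow (exact permutation p = 0.00794), with differences of -0.90 to -0.80, and Mlycd minus Acacb had 0.0159, with differences of -0.39 to -0.36. Without Old replicates 3 and 6 together the differences were -0.79 and -0.24, both at the smallest exact permutation p that 3 against 5 arrays allow (0.0179, adjusted 0.0804), so the lost call says nothing about their stability. The ages did not overlap for either pair in any of these fits. Etfdh minus Etfa passed without Young replicate 2 (0.0357).

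**Figure D4:**
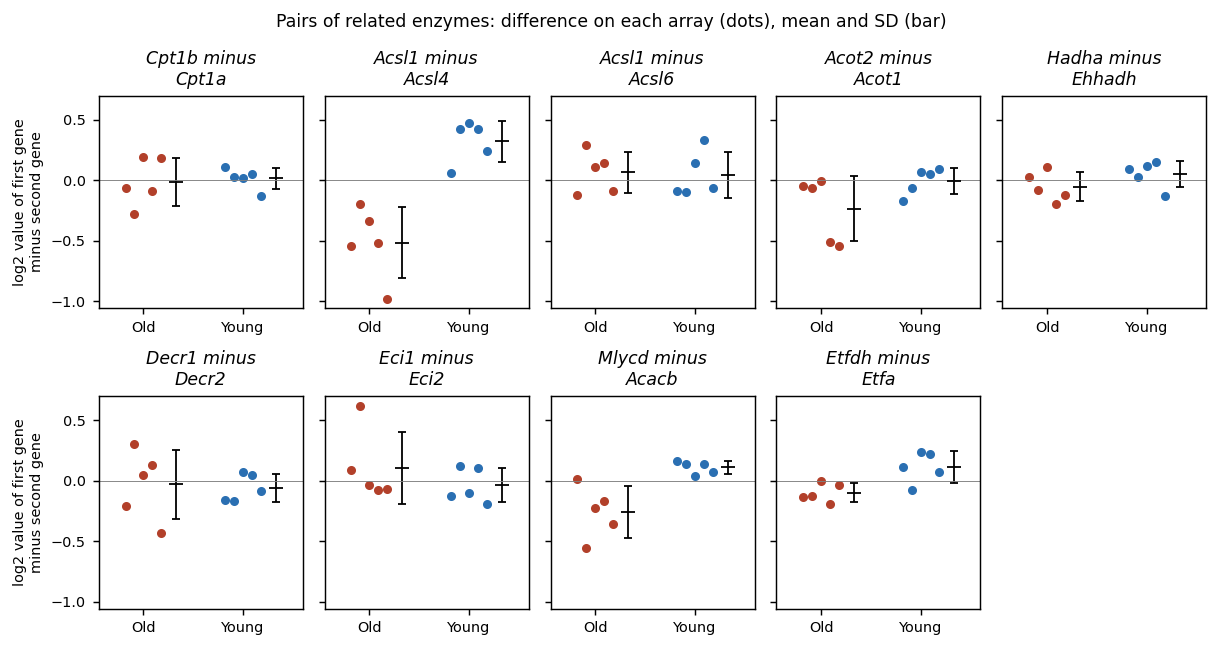
Log2 value of the first gene minus that of the second on each array (y axis) for the 9 measured pairs, with Old arrays on the left, Young arrays on the right, and the mean and SD beside the dots. Acsl1 minus Acsl4 lies between -0.98 and -0.20 on Old arrays and between 0.06 and 0.47 on Young arrays, without overlap.

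Old arrays differed among themselves in how low these genes were. The median of the 36 genes was -0.05, -0.14, -0.02, -0.06 and -0.19 on Old arrays, against 0.04, 0.03, 0.07, 0.04 and 0.05 on Young arrays. Old replicate 6 held the lowest of the 10 values for 17 of the 36 genes and Old replicate 3 for 11. Young arrays thus sat close together, and Old arrays were lower by varying amounts.

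Markers of cell types moved with age on the same arrays, where 5.09% of all genes fell and 6.77% rose. A probe set of the brightest class was present for all 11 measured cardiomyocyte markers. The same held for 7 of 8 fibroblast, 2 of 6 endothelial, 2 of 6 adipocyte and 1 of 5 smooth muscle markers. It held for 1 of 9 macrophage, 1 of 4 atrial and 0 of 8 lymphocyte markers, and for 2758 of all 14217 genes. Of the 11 cardiomyocyte markers, 10 had lower means in Old hearts and 3 fell, with a median difference of -0.12. Their mean level was -0.28 to 0.02 on Old arrays, against 0.06 to 0.25 on Young arrays. The 3 that fell, named after their values were seen, were Myh6 (-1.24), Ryr2 (-0.55) and Actn2 (-0.46). The other 8 lay between -0.52 and 0.03 and did not pass. Macrophage markers were higher in 9 of 9 genes (4 rose), with means of 0.00 to 0.95 on Old arrays and -0.37 to -0.03 on Young arrays. Fibroblast markers were higher in 8 of 8 genes (4 rose), at -0.09 to 0.43 on Old arrays and -0.27 to 0.03 on Young arrays. Of the atrial markers 4 of 4 were higher and 2 rose, at 0.16 to 0.83 on Old arrays and -1.05 to -0.29 on Young arrays. The 2 that rose, named after their values were seen, were Nppa (2.69) and Myl7 (1.45). Myl4 (0.26, limma adjusted p = 0.151) and Sln (0.16, limma adjusted p = 0.507) did not pass. Lymphocyte markers averaged 0.06 to 0.70 on Old arrays, with the highest values on Old replicates 3 (0.70) and 6 (0.45), and -0.27 to 0.01 on Young arrays. They were split, with 5 of 8 genes higher and 3 lower in Old hearts, a median difference of 0.14, and 1 that rose, the granzyme gene Gzma (1.98), ahead of Nkg7 (1.11, limma adjusted p = 0.0551). Both were named after their values were seen. Endothelial markers lay at -0.01 to 0.28 on Old arrays and -0.13 to 0.01 on Young arrays, with 3 of 6 genes higher and 3 lower in Old hearts and a median difference of 0.09. The 2 that rose, also named after their values were seen, were Vwf (0.94) and Tek (0.35). Smooth muscle markers overlapped, at -0.13 to 0.18 on Old arrays and -0.20 to 0.18 on Young arrays, with 3 of 5 genes higher. The part of these markers in the results was not tested. In whole tissue, fewer cells of a type and less RNA per cell cannot be told apart. Of the adipocyte markers 4 of 6 had lower means in Old hearts. They averaged 1.13 on Young replicate 2, with Adipoq at 2.99, against -0.23 to 0.13 on the other 9 arrays. Without that array 6 of the 36 genes fell and 1 rose, where 454 of all 14217 genes fell and 593 rose. Without Young replicate 3, whose adipocyte mean was -0.20, 5 of the 36 fell and 1 rose (430 and 558 of all genes).

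**Figure D5:**
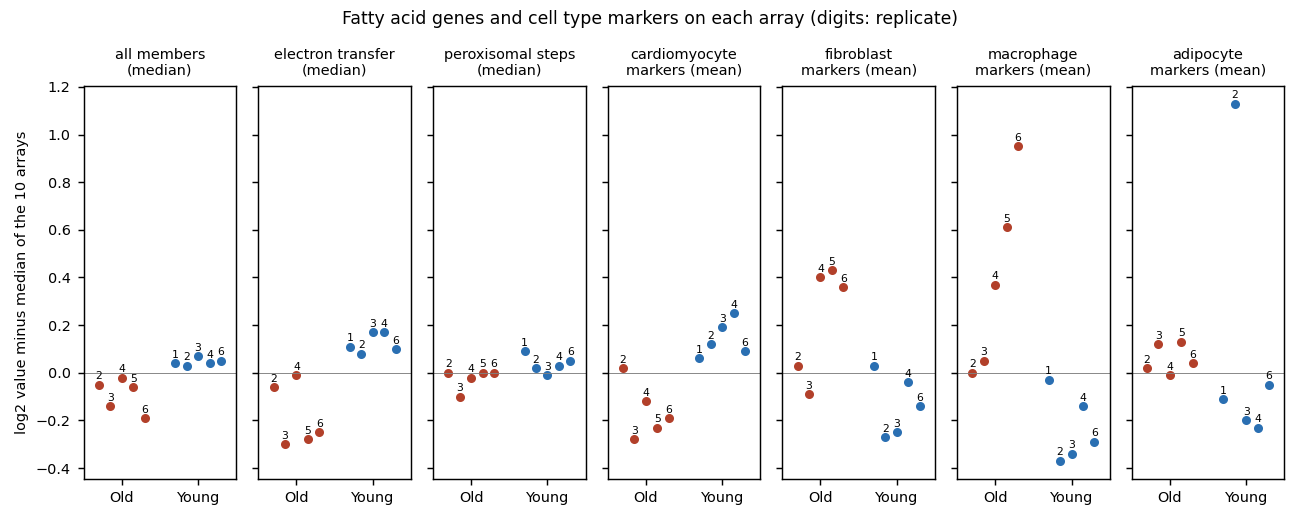
Log2 level relative to the median of the 10 arrays (y axis) on each array, numbered by replicate, with Old left of Young, as medians of fatty acid genes and means of marker genes. Electron transfer genes lie between -0.30 and -0.01 on Old arrays and between 0.08 and 0.17 on Young arrays, and adipocyte markers reach 1.13 on Young replicate 2.

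Other genes of the pathway, and related acyl-CoA enzymes, came from lists written with earlier results of these data known. They were counted in the same fit, where 5.09% of all genes fell and 6.77% rose. Among further mitochondrial acyl-CoA enzymes, not all of which act in fatty acid oxidation, 8 of 16 measured genes fell (median -0.27). The smallest p belonged to the acyl-CoA synthetase gene Acsf2 (-0.73 ± 0.09 SE, limma adjusted p = 0.00121), the propionyl-CoA carboxylase gene Pccb (-0.36), Acad10 (-0.38) and the carnitine-acylcarnitine carrier gene Slc25a20 (-0.26). In fatty acid supply and binding 3 of 13 fell (median -0.21). These were Plin5 (-0.53 ± 0.08 SE, limma adjusted p = 0.00264), which tethers lipid droplets to mitochondria, the lipase gene Mgll (-0.28) and the lipoprotein receptor gene Vldlr (-0.47). Of further peroxisomal oxidation genes 2 of 14 fell (median -0.10), the reductase gene Pecr (-0.47 ± 0.06 SE, limma adjusted p = 0.00164) and Abcd3 (-0.29), a transporter of the peroxisomal membrane. Of 12 peroxisome assembly genes, 0 passed in limma, 2 had an unadjusted p under 0.05, and the median was -0.06. Calls were lost without 1 array for Acad10 (Old replicate 5 or Young replicate 2, 3 or 4), Slc25a20 (Old replicate 3, 5 or 6 or Young replicate 1, 2 or 3), Mgll (Old replicate 6 or Young replicate 2 or 6), Vldlr (any but Old replicates 2, 3 and 4) and Abcd3 (Young replicate 2). The adjusted p in those fits lay between 0.0514 and 0.0977. Of the calls in this paragraph, those of Acsf2, Pccb, Plin5 and Pecr also held without Old replicates 3 and 6 together.

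Of 17 genes of PPAR and PGC-1 control 6 fell (median -0.15), where 5.09% of all genes fell and 6.77% rose. The PPAR receptor genes themselves, Ppara (-0.07), Ppard (-0.15) and Pparg (0.08), did not pass (limma adjusted p 0.108 to 0.624). Lpin1, whose product lipin acts as a phosphatidate phosphatase and a PPAR-alpha coactivator, fell to the greatest extent among them, by 0.79 on the log2 scale (-0.79 ± 0.11 SE, limma adjusted p = 0.00210). Ppargc1b (-0.68), Ppargc1a (-0.62) and the retinoid receptor gene Rxrg (-0.25) were next by p. Rxrg and Ppargc1a did not pass without Old replicates 3 and 6 (0.0538 and 0.0717). Of 8 PPAR targets outside the fatty acid list, the uncoupling protein gene Ucp3 fell (-0.36) and Ucp2 rose (0.32), with a median of 0.04 over the list. In fatty acid synthesis and desaturation 2 of 12 rose, the elongase genes Elovl5 (0.18) and Elovl1 (0.20), with a median of -0.01. The calls of Ucp3, Ucp2, Elovl5 and Elovl1 were each lost in 7 to 9 of the 10 fits that left out 1 array (0.0517 to 0.114).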

How the data were processed

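The samples were 5 Old and 5 Young rat heart arrays, grouped by the titles and ages of the labels. Per the labels' protocols, 100 ng of total RNA was amplified with 2 rounds of cDNA synthesis. The deposited values are on a log scale, taken as log2, and were already centred so that each probe set has a median of 0 over the 10 arrays. The log base was inferred from the values, and the summarisation software, background correction and normalization were not given in the sources used here. No batch, scan date or time of day was given. Columns left unused numbered 0.

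Of 31042 probe sets, 20826 carried 1 gene symbol, 436 several and 9780 none. Those with 1 symbol were averaged per gene (14217 genes), and 20758 matched the RefSeq table by ID. Ages were compared with limma 3.58.1 in R 4.3.3 (lmFit and eBayes, two-sided, Benjamini-Hochberg over all genes, threshold 0.05), after a check on simulated data. Pairs of genes used an exact permutation test over 252 arrangements (numpy 2.4.6), adjusted over 9 pairs. The 95% intervals used t quantiles from scipy 1.17.1. Brightness classes came from the numerical step left by single-precision storage, which grows with the undeposited signal. All members were named, and of each further list up to 4 genes past the threshold with the smallest p. Ppara, Ppard and Pparg were named outside this rule. The members and lists were chosen with earlier results of these data known. The number of arrays limits the precision. Replicate numbers 2, 3, 4 and 6 occur at both ages. Same-numbered arrays correlated at 0.03, 0.01, 0.09 and 0.15 in their deviations from the age means, so the numbers were not taken to pair them. Alternatives covered scaling, dim probe sets, the summary per gene, array weights, the variance prior, the replicate block and leaving out arrays. No 2 arrays were duplicates (highest correlation 0.570).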

Additional observations from a re-analysis of the deposited data

Results flagged for a closer look

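In 4 of 72 groups of 5 values (36 genes at 2 ages), 1 array stood farther from its nearest neighbour, relative to the range, than Dixon's 95% critical value of 0.71, and chance does so in about 1 group in 20. For Echs1, Old replicate 3 was the lowest of its age at -0.84, a gap of 0.73 of the range. For Hadh, Young replicate 6 was the lowest of its age at -0.04 (0.80 of the range). For Cpt2, Young replicate 3 was the highest of its age at 0.15 (0.88 of the range), and without it the limma adjusted p of Cpt2 was 0.0602. For Acot1, Young replicate 1 was the highest of its age at 0.16 (0.78 of the range).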

How the results depend on the processing

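The 13 fatty acid genes past the threshold were the same 13 under quantile normalization, centring of each array, removal of the dimmest probe sets and a robust variance prior. Over all genes, those settings called 1666 to 1815, against 1686 in the main fit. All 13 were also called with the probe set of largest SD, which added Crot and Eci1, and with array weights, which added Acacb and Cpt1a. Calls over all genes also grew in these fits, to 1906 and 2239. With the replicate number as a block over the shared numbers, 7 of the 13 and 1069 genes in all were called, and pairs of genes numbered 0. The exact sign-flip test over 4 numbers cannot go below p = 0.125. The same arrays without pairing, a setting chosen after seeing the data, gave 7 and 929, and 2 of 4 Old arrays correlated best with the Young array of their own number. Without Old replicates 3 and 6 the counts were 5 fatty acid genes, 1012 genes and 0 pairs. Leaving out 1 array gave 6 to 14 fatty acid genes, 988 to 1994 genes and 0 to 3 pairs. These signs turned. Acot2 was 0.07 with the probe set of largest SD and 0.01 with the highest class, where Acaa2 was -0.09. Acadl was 0.01 without Old replicates 3 and 6. Decr1 was -0.01 with array weights and 0.00 with the block and on the same arrays unpaired, where Decr2 was 0.04 in both. With the block, Cpt1b minus Cpt1a was 0.01, Acsl1 minus Acsl6 -0.03 and Decr1 minus Decr2 -0.04. Acsl1 minus Acsl6 was 0.00 without Old replicates 3 and 6. Eci1 minus Eci2, which was 0.15 over all probe sets, was -0.04 with the probe set of largest SD and -0.04 with the highest class. Over the fits without 1 array, the ranges were -0.03 to 0.11 for Cd36, -0.16 to 0.08 for Acot2, -0.06 to 0.11 for Decr1 and -0.07 to 0.01 for Decr2. They were -0.08 to 0.04 for Cpt1b minus Cpt1a, -0.03 to 0.09 for Acsl1 minus Acsl6 and -0.05 to 0.13 for Decr1 minus Decr2. Fits with fewer arrays have less power by construction, and the cause of the other changes was not tested. Signal over background could not be read from centred values, so a gene near its detection limit cannot be told from one that is well measured.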
